A study of Mus musculus with 16 samples.

Results

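The genes described here are 9 complement components and regulators measured in mouse retina: C1ra, C2, C4b, C3, Cfb, Serping1, Cfi, Cd59a and C3ar1. They were chosen by name, as complement genes outside C1q, and are 9 of the 36528 gene identifiers measured in each library. RNA was sequenced from 16 retinas, 8 from eyes with a crushed optic nerve and 8 uncrushed, 3 days after the injury. The crushed eyes gave 5 retinas of mice dosed with GNE-3511 (labelled DLKi) and 3 of mice given vehicle (MCT, labelled control), and the uncrushed eyes gave 5 retinas of DLKi mice and 3 of control mice. GNE-3511 is an inhibitor of DLK, a kinase of the stress response of injured axons, and was given at 75 mg/kg at 60 and 68 hours after the injury. No transgene or mutation is named in the labels, and strain, age and sex are not given there. They state 5 mice per drug without saying which retinas share a mouse, so the p-values measure only the spread between these samples. Vehicle retinas beyond these 6 were not analysed here.

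Complement is a cascade of plasma and tissue proteins that tags surfaces for removal. The classical pathway starts when C1q binds a target, its attached protease C1r activates C1s, and C1s cleaves C4 and C2. The alternative pathway runs through factor B, and all routes meet at C3. Regulators such as C1 inhibitor, factor I and CD59 restrain the cascade at successive steps. In retina and brain, microglia are a main source of C1q, and complement has a known role in the pruning of synapses.

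Levels are given as nRPKM, the authors' RPKM (reads per unit of gene length and library size) scaled by a factor per library, and every test is edgeR's quasi-likelihood test on the counts with Benjamini-Hochberg adjustment over 19391 tested genes, all 9 complement genes among them. A gene is said to rise or fall only at an adjusted p of 0.05 or less. Library totals were 22.35 to 44.75 M counts. As a check of the tissue, 10 markers of Müller glia, the radial glia of the retina, summed to 1574.9 to 2206.0 nRPKM over the 16 libraries. Lens transcripts differed most between libraries: the summed level of 10 lens markers was 1.47 to 15.3 nRPKM in crushed DLKi and 0.872 to 10.2 in crushed vehicle retinas, against 8.68 to 310.6 in uncrushed DLKi and 1.28 to 119.4 in uncrushed vehicle retinas. The 3 libraries with the most lens RNA (uncrushed DLKi replicates 3 and 5 and uncrushed vehicle replicate 2) were left out as an alternative chosen after seeing the data, and the values without them stand beside the results they change.

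After crush 4 of the 9 genes rose when the effect was averaged over both drug arms: C4b, Serping1, C3ar1 and Cfi. None of the 9 was called lower by edgeR or DESeq2 (0 at an unadjusted p under 0.05). The 4 stand against a background of 8.45% of all tested genes called in either direction and 5.22% called higher. The log2 change was above 0 for 8 of the 9 genes, with a median of 0.50 over the 9 and of -0.003 over all tested genes. Within the DLKi arm, C4b, Cfi and Serping1 rose (background 5.33%, and 3.29% higher), and within the vehicle arm C4b alone did (background 2.63%, and 1.77% higher). C1ra missed the threshold with a change close in size to that of C3ar1, and C3, C2, Cfb and Cd59a were not called in any comparison. In whole retina, a rise in transcript per cell and a rise in the number of cells that carry it cannot be told apart.

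**Figure D1:**
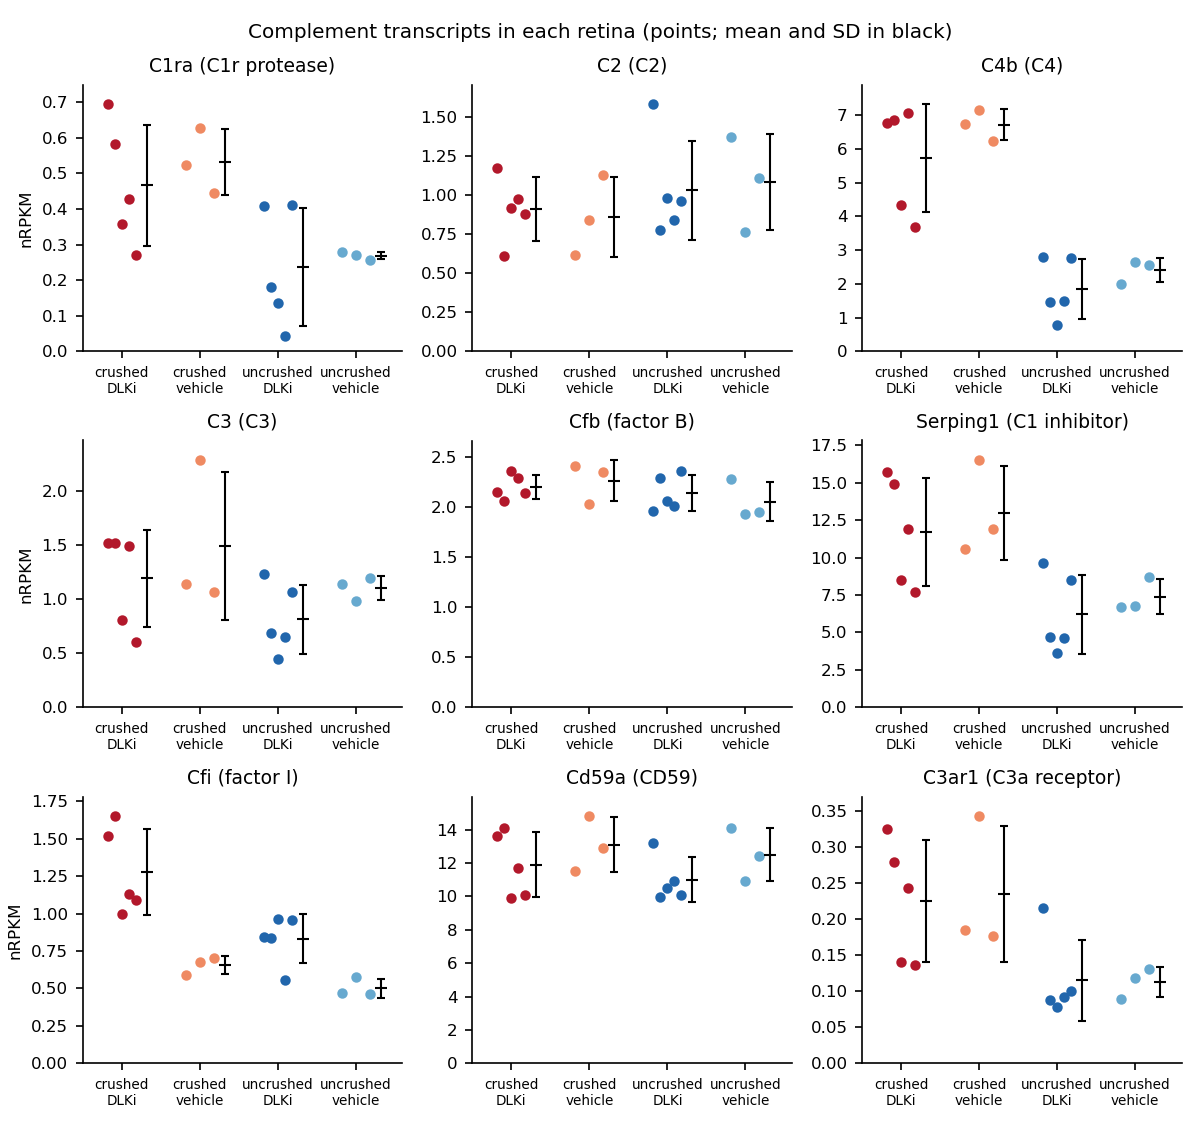
Level of each of the 9 complement genes (nRPKM, linear axis from 0) in each retina, with points for single retinas and black marks for the mean and SD of each group. All C4b and Cfi points of crushed retinas lie above those of uncrushed retinas given the same agent, while Cfb stays between 1.93 and 2.41 nRPKM in all 16 retinas.

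C1ra encodes C1r, the protease of the C1 complex that activates C1s (Entrez 50909; GRCm38 chromosome 6, 124512621 to 124523440, plus strand). Its level was 0.694, 0.581, 0.359, 0.427 and 0.271 nRPKM in crushed DLKi retinas, against 0.409, 0.180, 0.137, 0.0422 and 0.410 nRPKM in uncrushed DLKi retinas. With vehicle it was 0.524, 0.628 and 0.444 nRPKM in crushed and 0.278, 0.271 and 0.257 nRPKM in uncrushed retinas. The vehicle groups did not overlap and the DLKi groups did, the lowest value resting on 5 reads. Averaged over both arms the crush effect was 1.00 ± 0.31 on the log2 scale (SE; 95% interval 0.34 to 1.67; edgeR adjusted p = 0.0583), short of the threshold. DESeq2 called it (adjusted p = 0.0222), as did edgeR without crushed DLKi replicate 5 or uncrushed DLKi replicate 1, 4 or 5 (adjusted p = 0.0236 to 0.0473).

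C1ra has a near copy, C1rb: 48.0% of the 50-base windows of C1ra transcripts, the length of the reads, also occur in C1rb, and 4.5% in Gm18840. Reads from such windows have no unique place, and the authors counted unique alignments only. C1rb itself had 0 to 2 reads per library.

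C4b encodes complement C4, whose larger fragment attaches covalently to the target surface (Entrez 12268; chromosome 17, 34728139 to 34743902, minus strand). It had the largest change of the 9. Crushed retinas had 6.76, 6.85, 4.33, 7.06 and 3.68 nRPKM of C4b under DLKi and 6.75, 7.16 and 6.25 nRPKM under vehicle. Uncrushed retinas had 2.80, 1.46, 0.785, 1.5 and 2.76 nRPKM under DLKi and 1.99, 2.66 and 2.57 nRPKM under vehicle. Every crushed retina lay above every uncrushed retina. The means were 5.73 ± 1.60 nRPKM in crushed DLKi and 6.72 ± 0.455 in crushed vehicle retinas, and 1.86 ± 0.887 in uncrushed DLKi and 2.41 ± 0.366 in uncrushed vehicle retinas (SD, n = 5, 3, 5 and 3). Between the agents the groups overlapped in both eyes.

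The crush effect on C4b was 1.56 ± 0.22 on the log2 scale averaged over both arms, a 2.94-fold rise (95% interval 1.10 to 2.01; edgeR adjusted p = 0.000109). It was 1.63 ± 0.27 with DLKi (edgeR adjusted p = 0.000876) and 1.48 ± 0.34 with vehicle (edgeR adjusted p = 0.0238). The averaged call held in all 24 alternatives, with log2 changes of 1.46 to 1.66, and without the lens-rich libraries it was 1.57 ± 0.20. The vehicle call ended without crushed vehicle replicate 1 or 2 or any of the 3 uncrushed vehicle replicates (adjusted p = 0.0762 to 0.0801), although the log2 change stayed at 1.36 to 1.55.

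C4b lies near C4a on chromosome 17, and the coding sequence of C4b is 96.1% identical to a C4a transcript over 5207 aligned bases of the GENCODE annotation of GRCm38. Of the 50-base windows of C4b, 35.2% also occur in C4a, so part of the reads of either gene could not be placed uniquely. The stretches below, bases 2709 to 2758 of the C4b coding sequence and the aligned bases 2759 to 2808 of the C4a transcript, are written in the direction of the transcript. They are shown because a read across them can be told apart. Capitals mark the 11 bases that differ.
C4b: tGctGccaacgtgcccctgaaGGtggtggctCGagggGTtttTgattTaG
C4a: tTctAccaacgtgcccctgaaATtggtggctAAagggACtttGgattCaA
C4a was counted alongside C4b at 27.0 to 38.6% of their joint reads. It averaged 2.69 ± 0.817 nRPKM in crushed DLKi and 3.12 ± 0.378 in crushed vehicle retinas, against 1.01 ± 0.498 in uncrushed DLKi and 1.20 ± 0.158 in uncrushed vehicle retinas (SD, n = 5, 3, 5 and 3). Its averaged crush effect was 1.41 ± 0.22 on the log2 scale (edgeR adjusted p = 0.000294), so both copies rose in the uniquely aligned reads that the authors counted. By that counting, reads from shared windows are missing from both genes. Whether reads of 1 copy were placed at the other was not tested. A further identifier, 102643089, which the tables used here do not name, repeated the counts of C4b to within 5 reads in every library, and is not counted as a separate observation.

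C2 encodes the serine protease of the classical C3 convertase (Entrez 12263; chromosome 17, 34862602 to 34882100, minus strand). It ranged from 0.612 to 1.58 nRPKM over the 16 retinas, and its groups overlapped in every comparison. The averaged crush effect was -0.25 ± 0.18 on the log2 scale, with a 95% interval of -0.63 to 0.14 (edgeR adjusted p = 0.594).

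C3, the component on which all routes converge (Entrez 12266; chromosome 17, 57203967 to 57228136, minus strand), was variable. It measured 1.52, 1.52, 0.803, 1.49 and 0.606 nRPKM in crushed DLKi retinas, against 1.23, 0.688, 0.442, 0.645 and 1.06 nRPKM in uncrushed DLKi retinas. With vehicle it measured 1.14, 2.28 and 1.06 nRPKM in crushed and 1.14, 0.981 and 1.19 nRPKM in uncrushed retinas. Crushed vehicle replicate 2 was the highest of all 16, and the groups overlapped in both arms. The averaged crush effect was 0.50 ± 0.24 (log2; edgeR adjusted p = 0.294). With vehicle it was 0.45 ± 0.38 and came to -0.01 once that library was left out. An unnamed identifier, 102642251, held 90.4 to 98.2% of the C3 count in each library.

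Factor B, the protease of the alternative C3 convertase, is encoded by Cfb next to C2 (Entrez 14962; chromosome 17, 34856374 to 34862514, minus strand). Cfb was the steadiest of the 9 genes, with group means of 2.2 ± 0.122 and 2.26 ± 0.204 nRPKM in crushed DLKi and crushed vehicle retinas and of 2.14 ± 0.178 and 2.05 ± 0.195 nRPKM in uncrushed DLKi and uncrushed vehicle retinas (SD, n = 5, 3, 5 and 3). Its averaged crush effect was 0.10 ± 0.07 on the log2 scale, with a 95% interval of -0.05 to 0.24. The annotated gene Gm20547 on the same strand covers 79.5% of the exon bases of Cfb and 42.8% of those of C2. It shares 81.4% and 58.0% of their 50-base windows, so the counts of both genes depend on how reads in these exons were assigned.

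Serping1 encodes C1 inhibitor, which inactivates C1r and C1s (Entrez 12258; chromosome 2, 84765360 to 84775444, minus strand). It was among the more abundant of the 9. Crushed retinas had 15.7, 14.9, 8.49, 11.9 and 7.71 nRPKM of Serping1 under DLKi and 10.6, 16.5 and 11.9 nRPKM under vehicle. Uncrushed retinas had 9.64, 4.72, 3.62, 4.60 and 8.47 nRPKM under DLKi and 6.70, 6.78 and 8.73 nRPKM under vehicle. The vehicle groups did not overlap. In the DLKi arm crushed replicates 3 and 5 lay among or below the uncrushed replicates 1 and 5.

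The averaged crush effect on Serping1 was 0.87 ± 0.21 on the log2 scale, a 1.83-fold rise (95% interval 0.43 to 1.31; edgeR adjusted p = 0.0108), called in all 24 alternatives. With DLKi it was 0.93 ± 0.25 (edgeR adjusted p = 0.0394). That call ended without crushed DLKi replicate 1, 2 or 4, uncrushed DLKi replicate 2, 3 or 4, or uncrushed vehicle replicate 2 (adjusted p = 0.0508 to 0.128), and without the 3 lens-rich libraries (0.91 ± 0.28, adjusted p = 0.111). With vehicle it was 0.81 ± 0.33 (edgeR adjusted p = 0.318).

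Cfi encodes factor I, the protease that degrades surface-bound C3 and C4 fragments with the help of cofactors (Entrez 12630; chromosome 3, 129836727 to 129875332, plus strand). Crushed retinas had 1.52, 1.65, 1.00, 1.13 and 1.09 nRPKM of Cfi under DLKi and 0.588, 0.676 and 0.702 nRPKM under vehicle. Uncrushed retinas had 0.845, 0.840, 0.962, 0.557 and 0.960 nRPKM under DLKi and 0.468, 0.575 and 0.464 nRPKM under vehicle. Crushed retinas lay above uncrushed retinas given the same agent without overlap. The crushed DLKi retinas lay above all other retinas. These values rest on 27 to 155 reads per library.

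Averaged over both arms, the crush effect on Cfi was 0.50 ± 0.15 on the log2 scale, a 1.41-fold rise (95% interval 0.19 to 0.80; edgeR adjusted p = 0.0407). This call held without crushed DLKi replicate 3, 4 or 5 or uncrushed DLKi replicate 3 or 5, and ended without any one of the other 11 libraries (log2 change 0.44 to 0.55, adjusted p = 0.0533 to 0.108). With DLKi it was 0.62 ± 0.17 (edgeR adjusted p = 0.0343) and ended without crushed DLKi replicate 1 or 2 or uncrushed DLKi replicate 1, 2 or 4 (adjusted p = 0.0617 to 0.121). With vehicle it was 0.37 ± 0.24 (95% interval -0.13 to 0.88).

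Cd59a encodes the membrane-anchored CD59 that blocks assembly of the membrane attack complex (Entrez 12509; chromosome 2, 104095753 to 104115410, plus strand). It had the highest mean of the 9 in each group, with 11.9 ± 1.95 and 13.1 ± 1.64 nRPKM in crushed DLKi and crushed vehicle retinas and 11.0 ± 1.33 and 12.5 ± 1.60 nRPKM in uncrushed DLKi and uncrushed vehicle retinas (SD, n = 5, 3, 5 and 3). In crushed retinas its mean and that of Serping1 were within their spread of each other. The averaged crush effect on Cd59a was 0.10 ± 0.09 (log2; 95% interval -0.10 to 0.29).

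C3ar1 encodes the receptor for the C3 fragment C3a (Entrez 12267; chromosome 6, 122847140 to 122856157, minus strand) and had the lowest level of the 9. Crushed retinas had 0.325, 0.280, 0.140, 0.244 and 0.136 nRPKM of C3ar1 under DLKi and 0.185, 0.343 and 0.177 nRPKM under vehicle. Uncrushed retinas had 0.215, 0.0877, 0.0776, 0.0922 and 0.1 nRPKM under DLKi and 0.0894, 0.118 and 0.131 nRPKM under vehicle. Crushed vehicle retinas lay above uncrushed vehicle retinas. Uncrushed DLKi replicate 1 was the exception in its arm, above crushed replicates 3 and 5. The counts were 10 to 63 reads per library.

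The averaged crush effect on C3ar1 was 1.02 ± 0.26 on the log2 scale, a 2.03-fold rise (95% interval 0.47 to 1.57; edgeR adjusted p = 0.0184). It was 0.99 ± 0.32 with DLKi (edgeR adjusted p = 0.0917) and 1.05 ± 0.42 with vehicle (edgeR adjusted p = 0.304). The averaged call ended without crushed vehicle replicate 2 (0.82, adjusted p = 0.0857) and without the 3 lens-rich libraries (0.94 ± 0.32, adjusted p = 0.119).

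Promoter sequence from RefSeq (GRCm38.p6) was at hand for 4 of the 9 genes, C3, C1ra, Cd59a and C3ar1. The 250 bases before each start were searched on both strands for 4 motifs of factors active in inflammation. The gamma-activated site TTCNNNGAA occurs in 7.02% of 32851 promoters of that length, the interferon-stimulated response element (GAAA, any 2 bases and GAAA) in 2.98%, the NF-kB motif (GGGA, any base and TTTCC) in 0.36% and the C/EBP motif TTGCNNAA in 9.56%. C3 held 1 C/EBP match, at bases -45 to -38 from the start, and Cd59a 1 interferon-stimulated response element match, GAAAGGGAAA at bases -187 to -178. The Cd59a window ends at base 104095800 of chromosome 2, past the gene start of 104095753 given above, so its positions count from a later start. C1ra and C3ar1 held no match in these windows. Shown are the windows of C3, the precursor of C3a (chr17:57228137-57228386, minus strand), and of C3ar1, the C3a receptor gene that rose (chr6:122856158-122856407, minus strand), 5′ to 3′, with the match in capitals. A match is a description of the letters, and binding was not measured.
C3: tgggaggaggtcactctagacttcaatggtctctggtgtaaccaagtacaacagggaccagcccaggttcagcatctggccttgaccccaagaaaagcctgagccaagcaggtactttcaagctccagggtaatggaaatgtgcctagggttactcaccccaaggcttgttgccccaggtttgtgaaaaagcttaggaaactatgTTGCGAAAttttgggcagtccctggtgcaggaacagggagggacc
C3ar1: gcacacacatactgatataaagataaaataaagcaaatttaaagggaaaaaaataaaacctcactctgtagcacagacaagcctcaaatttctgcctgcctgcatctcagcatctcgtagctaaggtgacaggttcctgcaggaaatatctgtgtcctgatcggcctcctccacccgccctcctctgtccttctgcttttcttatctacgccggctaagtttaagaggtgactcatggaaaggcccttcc

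**Figure D2:**
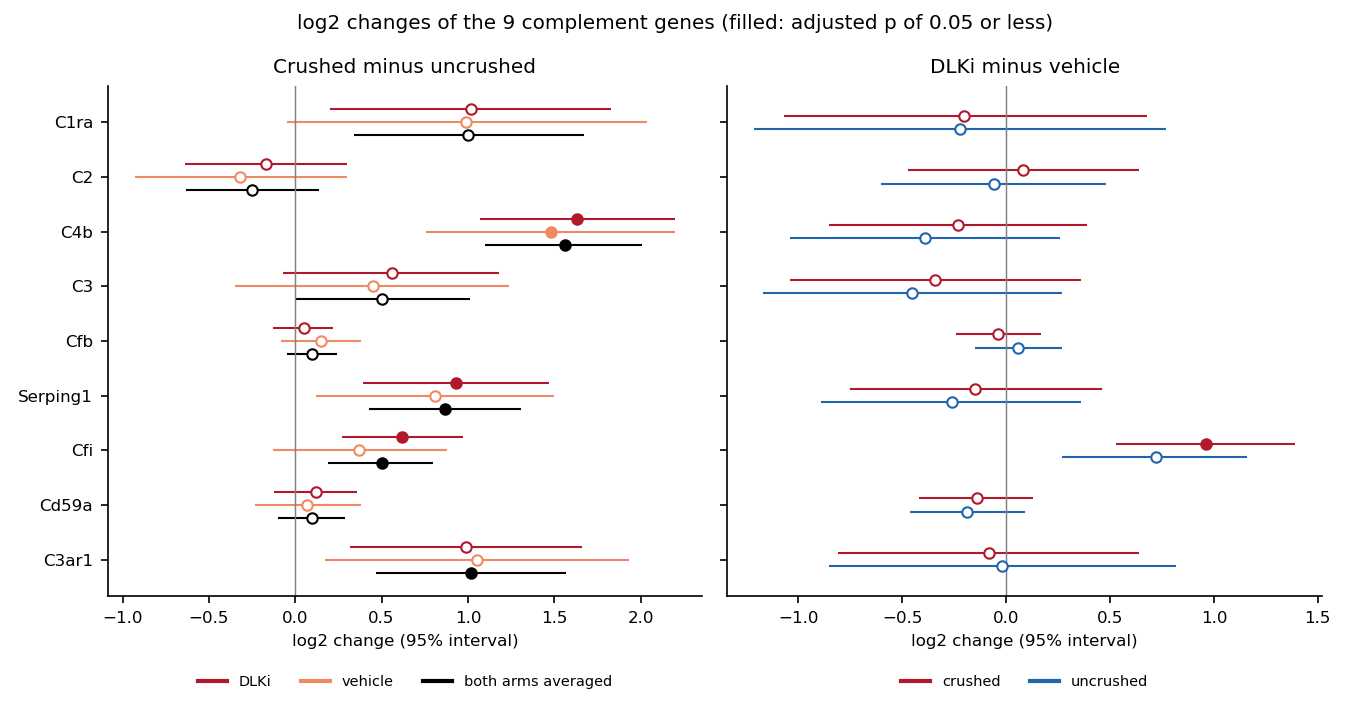
Log2 changes of the 9 genes with 95% intervals, crushed minus uncrushed on the left (DLKi, vehicle and both arms averaged) and DLKi minus vehicle on the right (crushed and uncrushed), with filled points for an edgeR adjusted p of 0.05 or less. C4b is the gene filled in all 3 crush comparisons, and Cfi is the gene filled on the right, at 0.96 in crushed retina.

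The inhibitor comparison in crushed retina called Cfi alone of the 9 genes, and Cfi was not tested against the others. In crushed retina 1 of the 9 genes differed between DLKi and vehicle, against a background of 0.505% of tested genes called and 0.129% called higher: Cfi, which averaged 1.28 ± 0.287 nRPKM with DLKi and 0.655 ± 0.0598 nRPKM with vehicle (SD, n = 5 and 3). The change was 0.96 ± 0.20 on the log2 scale, a 1.95-fold higher level with DLKi (95% interval 0.53 to 1.39; edgeR adjusted p = 0.0393). The other 8 genes had changes of -0.34 to 0.08. Their 95% intervals were narrowest for Cfb, from -0.24 to 0.17, and Cd59a, from -0.42 to 0.13. For C4b the interval ran from -0.85 to 0.39 and for Serping1 from -0.75 to 0.46.

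The call of Cfi in crushed retina depended on single libraries and was lost in 14 of 25 alternatives. It held without crushed DLKi replicate 3 or 4, uncrushed DLKi replicate 3, 4 or 5, or uncrushed vehicle replicate 1, and ended without any one of the other 10 (log2 change 0.85 to 1.02, adjusted p = 0.0522 to 0.183). It also ended without the lens-rich libraries (0.97 ± 0.20, adjusted p = 0.0577). In uncrushed retina none of the 9 genes was called by edgeR or DESeq2 (background 0.629%, and 0.263% higher; 51 genes higher and 71 lower in all, or 29 and 91 with library totals in place of scaling factors), and 1, Cfi, had an unadjusted edgeR p under 0.05. It averaged 0.833 ± 0.165 nRPKM with DLKi and 0.502 ± 0.0629 nRPKM with vehicle, a log2 change of 0.72 ± 0.21 (95% interval 0.27 to 1.16; edgeR adjusted p = 0.12). The lowest DLKi value, 0.557, lay below the highest vehicle value, 0.575.

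Because Cfi was higher with DLKi in both eyes, the inhibitor effect averaged over both eyes was added after these values were seen. Cfi was the 1 gene of the 9 called, against a background of 9.17% of tested genes, and 4.51% called higher (with library totals in place of scaling factors, the split of all calls moved to 511 higher and 1106 lower, against 874 and 904). The averaged change of Cfi was 0.84 ± 0.15 (log2; 95% interval 0.53 to 1.15; edgeR adjusted p = 0.00331), a 1.79-fold higher level with DLKi. It was called in all 24 alternatives, with log2 changes of 0.78 to 0.90. The average reuses the values that led to it, so this call is not separate support for those of the single eyes. The vehicle libraries serve in the inhibitor comparisons and in the crush comparison with vehicle, so these are not independent of each other. The labels state 5 mice per drug, and the fit took every retina as a separate sample of the drug. By that number of mice, the 5 crushed and 5 uncrushed DLKi retinas are both eyes of the same 5 mice. P-values and intervals of effects averaged over both eyes therefore count eyes of the same mouse as separate animals, and can overstate the evidence for an inhibitor effect.

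No difference was detected between the crush effect with DLKi and that with vehicle for any of the 9 genes (edgeR and DESeq2 each called 0, and 0 had an unadjusted edgeR p under 0.05; background 0.0103%). The estimates ran from -0.10 ± 0.14 for Cfb to 0.25 ± 0.29 for Cfi. For C4b the difference was 0.16 ± 0.43 on the log2 scale, with a 95% interval of -0.74 to 1.06, which leaves room for a sizeable difference either way. Cfi and Serping1 were called with DLKi and not with vehicle, and by this test their crush effects did not differ detectably between the arms.

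The 9 genes differed in how tightly replicates agreed. Around the group means, the SD on the log2 CPM scale was 0.75 for C1ra, 0.55 for C3, 0.52 for C4b, 0.50 for C3ar1 and 0.47 for Serping1. The median SD of genes of like level was 0.31, 0.18, 0.12, 0.35 and 0.13 beside them. C2, at 0.39, and Cd59a, at 0.20, were also above their medians of 0.23 and 0.12. Cfb, at 0.11, was below its median of 0.18, and Cfi, at 0.27, was near its median of 0.25. Some of the variable genes were high and low in the same libraries: within their groups, C1ra, C3, C4b and Serping1 were highest in uncrushed DLKi replicates 1 and 5 and lowest in crushed DLKi replicates 3 and 5. C2 and Cd59a were also highest in uncrushed DLKi replicate 1, but in replicate 5 they deviated from their group means by -0.05 and -0.11.

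**Figure D3:**
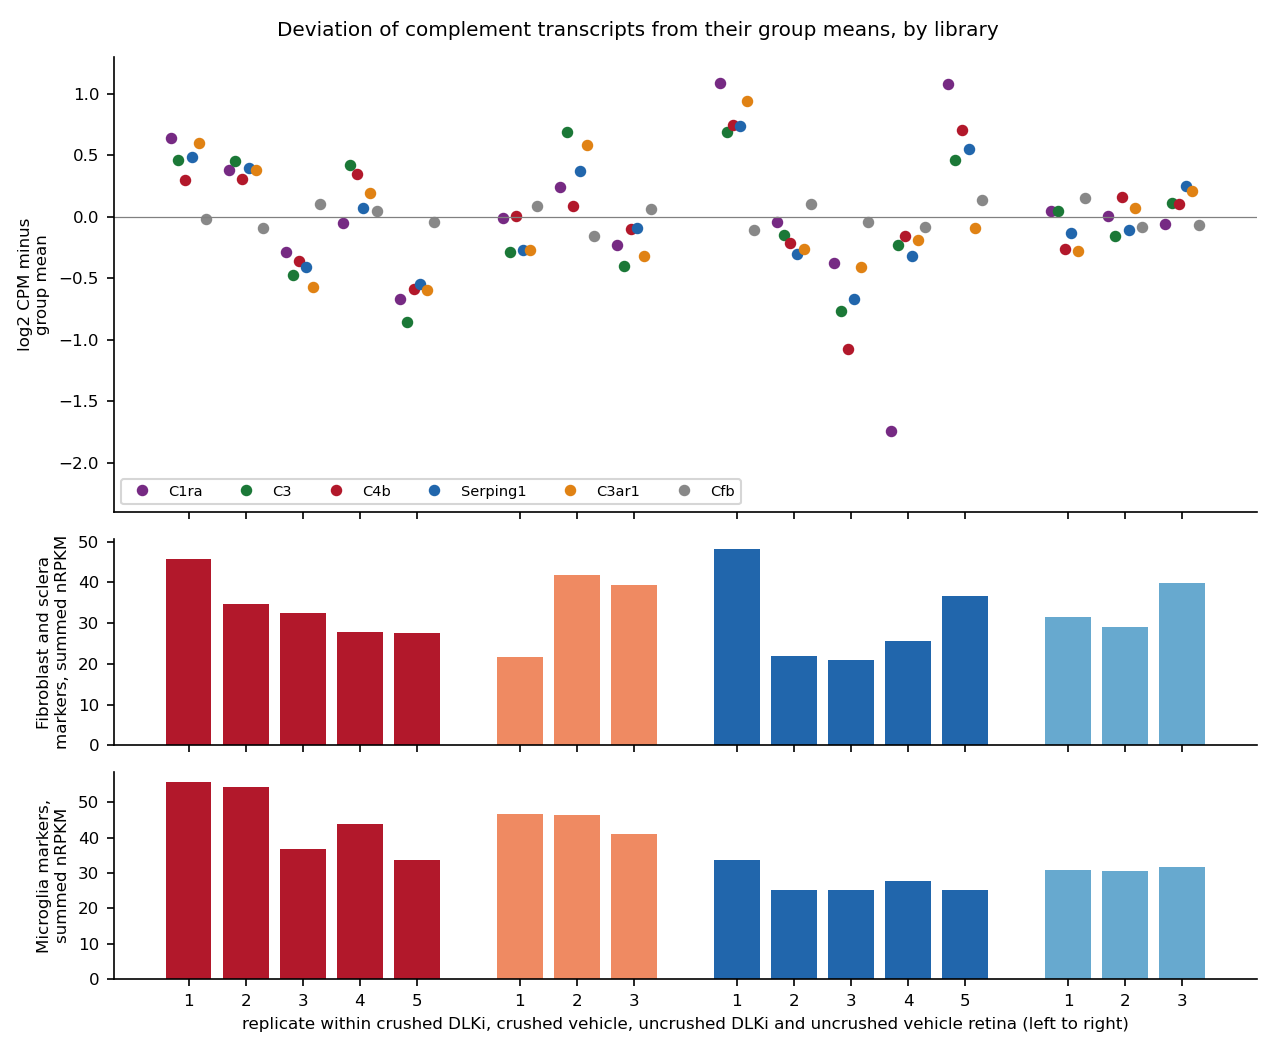
Upper panel: deviation of 6 complement genes from their group mean in each library (log2 CPM), with a dot per gene. Lower panels: summed nRPKM of the 10 fibroblast and sclera markers and of the 12 microglia markers in the same libraries. In uncrushed DLKi replicate 1 all of the coloured genes lie above 0 and the fibroblast sum is the highest of the 16, at 48.3, while Cfb (grey) stays near 0 throughout.

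Marker sums of other cells are set beside these values, and how closely they vary together was not computed. The summed level of the 12 microglia markers was 33.8 to 55.7 nRPKM in crushed DLKi and 41.0 to 46.6 in crushed vehicle retinas, against 25.2 to 33.6 in uncrushed DLKi and 30.7 to 31.6 in uncrushed vehicle retinas. All 12 rose with crush in the averaged comparison, and so did all 15 interferon-stimulated genes listed. Over all tested genes 8.45% were called and 5.22% called higher, which also stands beside the crush counts of the lists below. The lists were chosen with earlier results of these data known, so these counts are descriptions and not tests. The 10 fibroblast and sclera markers summed to 27.7 to 45.7 nRPKM in crushed DLKi and 21.6 to 41.8 in crushed vehicle retinas, against 21.0 to 48.3 in uncrushed DLKi and 29.1 to 39.8 in uncrushed vehicle retinas. Of the 9 of them tested, 2 rose with crush (Col3a1 and Pdgfra). None of the microglia or fibroblast markers was at 0 throughout any group. The 12 markers of infiltrating leukocytes, of which 3 passed the filter on low counts, summed to 3.40 to 7.11 nRPKM in crushed DLKi and 3.33 to 5.92 in crushed vehicle retinas, against 2.36 to 5.08 in uncrushed DLKi and 4.08 to 6.0 in uncrushed vehicle retinas, where S100a8, Cd3g and Nkg7 were at 0. The 10 markers of reactive gliosis, the injury response of retinal glia, summed to 124.2 to 224.1 nRPKM in crushed DLKi and 169.1 to 195.2 in crushed vehicle retinas, against 55.8 to 94.2 in uncrushed DLKi and 75.6 to 81.9 in uncrushed vehicle retinas, and 9 of the 10 rose. The 12 ganglion cell markers summed to 335.9 to 406.4 nRPKM in crushed DLKi and 261.1 to 367.8 in crushed vehicle retinas, against 520.8 to 695.4 in uncrushed DLKi and 422.4 to 582.1 in uncrushed vehicle retinas, and 11 of the 12 fell. In the inhibitor effect averaged over both eyes, 6 of these 12 were higher with DLKi, against 9.17% of all tested genes called and 4.51% called higher. No marker of reactive gliosis or of ganglion cells was at 0 throughout a group. Uncrushed DLKi replicates 1 and 5, the libraries high in complement transcripts, had the highest sums of their group for fibroblast markers, at 48.3 and 36.7 nRPKM, for reactive gliosis, at 94.2 and 77.4 nRPKM, and for Müller glia, at 2206.0 and 1869.9 nRPKM. Replicate 1 was also the highest of its group for microglia, at 33.6 nRPKM, and for 8 markers of retinal pigment epithelium, at 171.3 nRPKM. Replicate 5 was not: its microglia sum, 25.2 nRPKM, equalled the lowest of the group, and its pigment epithelium sum, 37.3 nRPKM, was the lowest. Its ganglion cell sum, 520.8 nRPKM, was also the lowest of the group, and its lens sum, 310.6 nRPKM, the highest. The part of these cell types in the complement values was not tested. Without the 2 libraries with the highest fibroblast sums, a setting chosen after seeing the data, the averaged crush effect was 1.62 ± 0.21 for C4b, 0.91 ± 0.19 for Serping1 and 1.11 ± 0.22 for C3ar1, all called by edgeR, and 0.47 ± 0.16 for Cfi, which was not (adjusted p = 0.1).

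Of 50 further complement genes, 29 passed the filter on low counts. In the averaged crush effect 9 of the 29 rose, beside the background of 8.45% of tested genes called and 5.22% called higher, and none was called lower (1 had an unadjusted edgeR p under 0.05 in that direction, and DESeq2 called 0 lower). Of the 29, Colec10, C5ar1 and Itgax passed the filter only through their crushed libraries, and 7 of the other 26 rose. All 3 chains of C1q, the recognition unit of the classical pathway, rose: C1qa by 0.99 ± 0.15, C1qb by 1.16 ± 0.15 and C1qc by 1.26 ± 0.19 on the log2 scale (edgeR adjusted p = 0.000294, 5.29e-05 and 0.00024). C1qb averaged 11.4 ± 3.28 and 11.2 ± 1.78 nRPKM in crushed DLKi and crushed vehicle retinas, and 4.88 ± 1.16 and 5.27 ± 0.178 nRPKM in uncrushed DLKi and uncrushed vehicle retinas (SD, n = 5, 3, 5 and 3). C1s1, the partner protease of C1r, changed by 0.45 ± 0.14 and missed the threshold (edgeR adjusted p = 0.0636).

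The receptor genes Itgam, Itgax and Itgb2, subunits of complement receptors 3 and 4, rose by 1.04 ± 0.14, 1.46 ± 0.35 and 1.00 ± 0.17 on the log2 scale (edgeR adjusted p = 7.84e-05, 0.01 and 0.000664), Itgax on 1 to 23 reads per library and on crushed libraries alone for passing the filter. C5ar1, the receptor for C5a, changed by 1.02 ± 0.37 (edgeR adjusted p = 0.116). Among the other regulators, Clu, the secreted chaperone clusterin, rose by 0.52 ± 0.09 (edgeR adjusted p = 0.00112). It averaged 425.5 ± 80.6 and 411.9 ± 36.7 nRPKM in crushed DLKi and crushed vehicle retinas, against 297.6 ± 39.9 and 286.4 ± 5.11 nRPKM in uncrushed DLKi and uncrushed vehicle retinas. Of 7 terminal pathway genes, 1 (C8g) passed the filter, and its change was -0.04 ± 0.12.

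**Figure D4:**
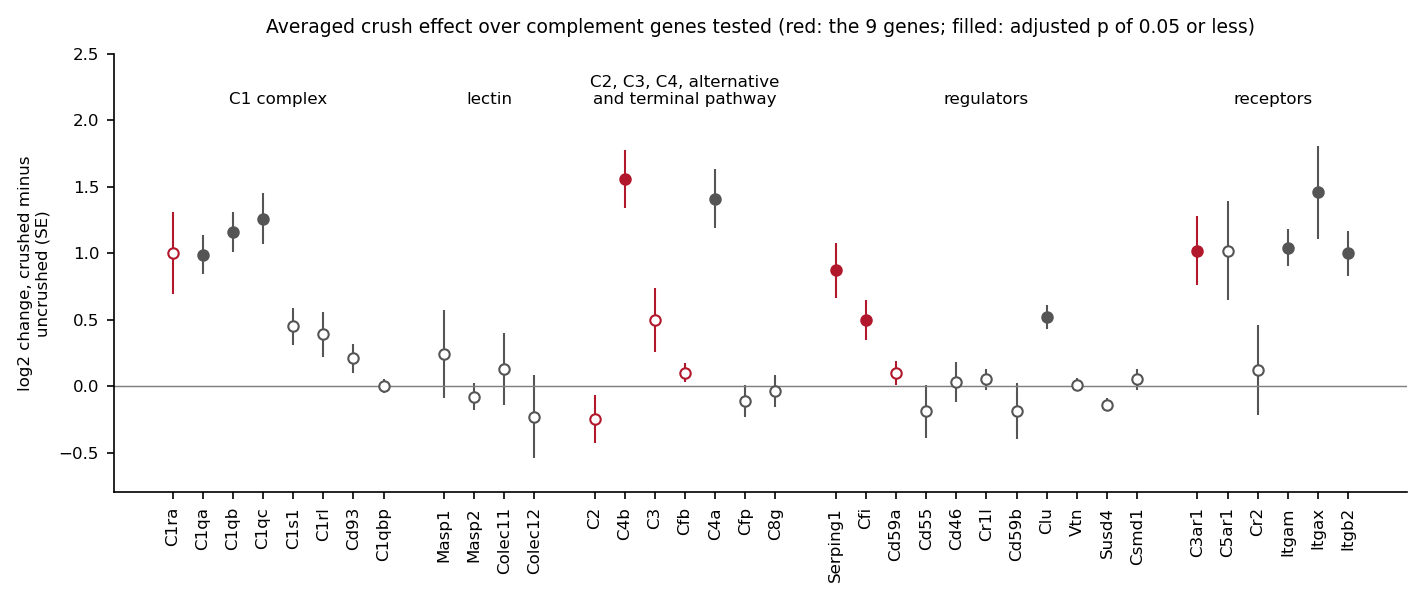
Averaged crush effect (log2, crushed minus uncrushed, with SE) on complement genes tested, grouped by role, with the 9 genes in red and filled points for an edgeR adjusted p of 0.05 or less. The high points, at 0.99 or more, are the 3 C1q chains, C4b, C4a, C1ra (open) and C3ar1, C5ar1 (open), Itgam, Itgax and Itgb2, while Cr2 lies at 0.12 and Cfb and Cd59a at 0.10; Colec10, with no reads in uncrushed retina, is left out.

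Colec10 encodes a collectin that recognises sugars for the lectin pathway (Entrez 239447; chromosome 15, 54410774 to 54466360, plus strand). It had 42, 67, 35, 30 and 30 reads in crushed DLKi retinas and 55, 25 and 34 reads in crushed vehicle retinas, against 0 reads in each of the 8 uncrushed retinas. Mean CPM over the 8 crushed libraries was 1.22, at least 13.9-fold higher than the mean of 0.0878 CPM that 3 counts would give in an uncrushed library. It entered the tested genes only through its crushed libraries. The other lectin pathway genes tested, Masp1, Masp2, Colec11 and Colec12, had averaged changes of 0.24 ± 0.33, -0.08 ± 0.10, 0.13 ± 0.27 and -0.23 ± 0.31.

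None of the 29 further genes was called by edgeR between DLKi and vehicle in crushed retina (3 had an unadjusted p under 0.05, and DESeq2 called 0) or in uncrushed retina (2 and 1). Averaged over both eyes, 1 was called, against the background of 9.17% of tested genes. This was C1qbp, a mitochondrial protein that can bind C1q, at 35.6 ± 2.46 nRPKM with DLKi and 30.8 ± 1.24 with vehicle in crushed retinas, and at 37.2 ± 2.84 with DLKi and 29.7 ± 1.46 with vehicle in uncrushed retinas (SD, n = 5 and 3 in each eye). Its averaged change was 0.27 ± 0.05 on the log2 scale (edgeR adjusted p = 0.00578).

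The genes with the profiles nearest to the 4 that rose were found from the root mean squared difference of centred log2 CPM values over the 16 libraries, a description with no test. For C4b they were C4a at 0.20, Timp1, an inhibitor of matrix metalloproteinases, at 0.33 and the lysosomal gene Cd68 at 0.34, beside 0.95 for the size of the C4b profile itself. For Serping1 they were Tagln2 at 0.22, the TNF receptor Tnfrsf1b at 0.24 and Ifitm3 at 0.25, beside 0.62. C3ar1, outside the candidates, was nearer to Serping1 than Ifitm3, at 0.24. For C3ar1 they were C1qc at 0.23, Serping1 at 0.24 and C1qa at 0.26, beside 0.64. Cfi had other neighbours: Cyp26a1, which degrades retinoic acid, at 0.28, and the mitochondrial folate enzyme Mthfd2 and Tmem71 at 0.32 each, beside 0.52.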

How the data were processed

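The authors' deposited counts are whole numbers of reads aligned uniquely per gene, per the file headers, made with GSNAP on GRCm38 per the submitters' processing notes, with no version or settings known here. The authors' deposited nRPKM, an RPKM scaled by a library factor, served only for levels. Libraries were poly(A), unstranded, from 0.5 µg of RNA, with single reads of 50 bases, per the labels. Of 36528 identifiers, 31049 matched a RefSeq symbol; the rest held 1.098 to 1.216% of counts.

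One edgeR 4.0.16 quasi-likelihood fit (R 4.3.3, limma 3.58.1) covered all 16 libraries with a mean per group, TMM scaling and filterByExpr, leaving 12 residual degrees of freedom; it was checked on simulated counts. Intervals are 95%. Log2 CPM used a prior count of 2. Replicates, numbered in the order of the records, differed by more than counting noise (chi-square per degree of freedom 6.73 to 42.8). Named genes are all 9 complement genes, further complement genes called in the averaged crush effect, and the 3 nearest profiles of each called gene; members and lists were chosen with earlier results of these data known, and C1s1, C5ar1, C8g, C1qbp and the lectin genes were named after their values were seen. One item is not reported here. Alternatives were RLE scaling, library totals, DESeq2 1.42.0, other filters, fits of the compared groups alone and left-out libraries.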

Additional observations from a re-analysis of the deposited data

Results flagged for a closer look

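Of the 18 sets of 5 replicates (9 genes in crushed DLKi and in uncrushed DLKi retinas), 3 held a value set apart from the others by Dixon's criterion, and chance sets apart about 1 in 20. All 3 were in uncrushed DLKi replicate 1, which had 1.58 nRPKM of C2 (next highest 0.982), 13.2 nRPKM of Cd59a (next highest 10.9) and 0.215 nRPKM of C3ar1 (next highest 0.1). The same library had the highest summed level of all 16 for fibroblast and sclera markers, 48.3 nRPKM, and for Müller glia markers, 2206.0 nRPKM. It was the highest of its group for microglia (33.6 nRPKM), reactive gliosis (94.2 nRPKM), retinal pigment epithelium (171.3 nRPKM) and interferon-stimulated genes (34.9 nRPKM). The part of these cells in the 3 values was not tested.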

How the results depend on the processing

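The averaged crush effect kept its direction for all 9 genes in all 24 alternatives, and 2 to 5 genes were called with single libraries left out, against 4 with all. C4b and Serping1 were called in all 24; Cfi lost its call in 13 (adjusted p up to 0.147) and C3ar1 in 2 (up to 0.119), and C1ra gained one in 7. With DLKi, 3 genes were called, 1 when only the groups compared were fitted, and 1 to 4 with single libraries left out. With vehicle, 1 was called, 0 without the 2 shallowest vehicle libraries (crushed replicate 3 and uncrushed replicate 1), and 0 to 1 with single libraries left out. In crushed retina, DLKi against vehicle called 1 gene, and 0 when only the groups compared were fitted, without the 2 shallowest vehicle libraries, without the 3 lens-rich or without the 2 fibroblast-rich libraries, and 0 to 1 with single libraries left out; the last 2 sets were chosen after seeing the data. Changes near 0 switched sign: for Cd59a with vehicle, -0.02 without the lens-rich libraries; for C2 in crushed DLKi against vehicle retina, -0.03 without the fibroblast-rich ones; for DLKi against vehicle in uncrushed retina, 0.13 for C2 without the shallowest pair, and -0.02 for Cfb and 0.18 for C3ar1 without the lens-rich libraries. With single libraries left out, ranges that crossed 0 were -0.28 to 0.03 for C2 with DLKi, -0.01 to 0.64 for C3 and -0.03 to 0.17 for Cd59a with vehicle; in crushed retina, DLKi against vehicle, -0.10 to 0.32 for C2, -0.53 to 0.11 for C3, -0.11 to 0.01 for Cfb, -0.28 to 0.07 for Serping1 and -0.26 to 0.31 for C3ar1; in uncrushed retina -0.27 to 0.13 for C2, -0.52 to 0.05 for C1ra and -0.36 to 0.10 for C3ar1; and -0.04 to 0.36 for the difference of the crush effects on C4b. The cause was not tested. Over all genes, the averaged crush effect called 1639 (1234 to 1927 over the alternatives), crush with DLKi 1034 (620 to 1378), crush with vehicle 510 (263 to 720), the averaged inhibitor effect 1778 (607 to 2568), and DLKi against vehicle 98 (22 to 420) in crushed and 122 (3 to 625) in uncrushed retina. No paired analysis was possible because the labels give no replicate numbers or animals. The lowest counts were 5 for C1ra and 10 for C3ar1.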
